A study of Mus musculus with 8 samples.

Results

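Histone genes, those whose products wrap DNA into nucleosomes and seal the linker between them, were followed in primary mouse embryonic fibroblasts on microarrays. A probe set, the array's unit of measurement for a transcript, was taken where its annotation symbol, or any one of several symbols, began as the names of H1, H2A, H2B, H3 and H4 genes do: Hist1h, Hist2h, Hist3h or Hist4 in the old style, or H1f, H2ac, H2bc, H2az, H3c, H3f or H4c in the current one. The rule used the names alone and found 66 of 35556 probe sets. Of these, 34 carried 1 symbol and stood for 33 genes, because H2az1 had 2 probe sets, and 32 carried several symbols. By class there were 8 for H1, 9 for H2A, 16 for H2B, 20 for H3, 12 for H4 and 1 mixed, annotated to an H2B and an H1 gene. The same 66 comprised 50 replication-dependent probe sets, 11 of replication-independent variants and 5 of germline-type genes.

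The 8 arrays came from 2 lines of primary fibroblasts, called line B (MEF16) and line A (MEF10) here, with the labels' names in brackets. Each line was measured with tamoxifen, when the labels call it PKM1 expressing, and without tamoxifen, when they call it PKM2 expressing, with 2 samples in each of the 4 groups. PKM1 and PKM2 are the splice forms of the muscle-type pyruvate kinase, which makes pyruvate at the end of glycolysis, and tamoxifen is the usual trigger of an inducible Cre recombinase. Which alleles, promoter and recombinase the lines carried, the form and dose of the agent, embryo age and whether replicate samples came from different cultures are not given in the sources used here, so tamoxifen and the isoform switch cannot be told apart and p-values measure only the spread between these samples.

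As background, replication-dependent histone genes lie in clusters, have no introns and are used mainly in S phase, when new DNA needs new nucleosomes. Their mRNAs mostly, though not always, end in a stem-loop bound by Slbp rather than in a poly(A) tail. In general they are made under the factor Npat and destroyed when replication stops. Variant genes such as H2az1 (for H2A.Z) and H3f3a and H3f3b (for H3.3) make polyadenylated mRNA through the cell cycle, and their proteins mark promoters, enhancers and active genes. The labels state biotinylated cRNA made by the standard Affymetrix protocol; how the first strand was primed is not given, and its effect on mRNAs without a poly(A) tail was not tested.

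Values are log2 signals, so a difference of 1 is a 2-fold difference. The column medians over all probe sets lay between 7.17 and 7.24. The 10 fibroblast markers had mean levels of 8.13 to 13.19, and the 10 epithelial and mammary markers 5.52 to 7.61; mammary markers were included since part of the label text mentions mammary tumors, while the titles and the source field name fibroblasts. The 8 macrophage and blood markers lay at 5.84 to 8.40, with Lyz2 the brightest and 0.46 higher with tamoxifen. The 5 endothelial markers lay at 6.55 to 6.69, and the 7 germ cell markers at 5.00 to 7.23. Of the 5 lists 0 probe sets passed the tamoxifen test over both lines. The fibroblast markers had a median difference of -0.02 and moved both ways. Lum was at 1.33 and Dcn at 0.88, while Col1a1, Pdgfrb, Col1a2 and Pdgfra were at -0.45, -0.30, -0.30 and -0.23. The part of such shifts in the histone values was not tested. The 2 samples of a group differed by a median of 0.23 over the 66 histone probe sets in line B with tamoxifen and 0.19 without, against 0.07 in line A with tamoxifen and 0.10 without, so line B had the wider spread. In line B this spread crossed the treatments for the H2B and the replication-dependent H3 probe sets with several symbols. Their median deviations from the 8-sample mean were 0.37 and 0.25 in replicate 1 with tamoxifen, and 0.12 and 0.12 in replicate 2 without. Replicate 2 with tamoxifen had -0.12 and -0.09, and replicate 1 without had -0.12 and -0.12. The H4 probe sets with 11 symbols did not show this split, and its cause was not tested. No detection calls were available. By level, 9 of the 66 were among the dimmest 30% of all probe sets, where a fold change is understated.

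The first question was how histone transcripts differed between cells with and without tamoxifen. With tamoxifen, the probe set for H2az1 fell, and it was the only one of 66 to pass limma's test over both lines at an adjusted p of 0.05. In the tamoxifen samples, H4 probe sets that cover most H4 genes lay lower in both lines, and probe sets for H2bc4 and H2bc8 (H2B) and for H1f2 and H1f3 (linker H1) lay higher in both. Adjusted p-values of these others were 0.0646 or more. H3 probe sets that cover most replication-dependent H3 genes showed neither pattern. In RNA from a whole culture, fewer cells that express a gene and less RNA per cell cannot be told apart.

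The 1 of 66 compares with 74 of 35556 probe sets called, which is 0.208% of the table, and 0.0647% of it fell. The count differed with the set of probe sets tested, and the reason was not tested. With only probe sets that have a symbol, 6 members passed (H2az1, H2bc4, H2bc8, H4c4, H1f2 and the H4 probe set 10404067). With 1 probe set per gene, 5 passed. Calls among all probe sets tested also rose in these settings, to 260 and 263, against 74 over all 35556. At an unadjusted p under 0.05 there were 24 of 66 members, 36.4%, beside 8.04% of all probe sets. Of the 24, 11 were higher with tamoxifen, where 4.69% of all probe sets were, and 13 were lower, where 3.35% were. The 4 samples with tamoxifen did not overlap the 4 without in 19 members, beside 4.72% of all probe sets: 9 lay wholly higher (2.4% of all) and 10 wholly lower (2.32% of all). Members share probes and 2 pairs had identical values in every sample, so these are not 66 independent readings.

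By class, the median log2 difference with tamoxifen was 0.19 for H2B, -0.01 for H1, -0.01 for H3, -0.18 for H2A and -0.28 for H4. Over all 66 it was 0.01, and over all 35556 probe sets -0.01. For H2B, 15 of 16 probe sets had a difference above 0. For H4, 8 of 12 lay below 0 and 4 above. The variants (11) had a median of -0.06 and the germline-type genes (5) one of 0.04. Without replicate 2 of line B with tamoxifen the H2B median was 0.32, and leaving out each of the other 7 samples gave medians from 0.11 upward. The H4 median depended on which probe sets were counted: it was -0.05 with 1 symbol only, -0.16 with identical profiles counted once and -0.43 outside the dimmest 30%. The H1 and H3 medians were near 0 and took either sign when single samples were left out. The H1 class also counts germline-type genes and the variant H1f10. Its 4 replication-dependent genes alone had a median of 0.20, with 2 above 0 and 2 below.

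**Figure D1:**
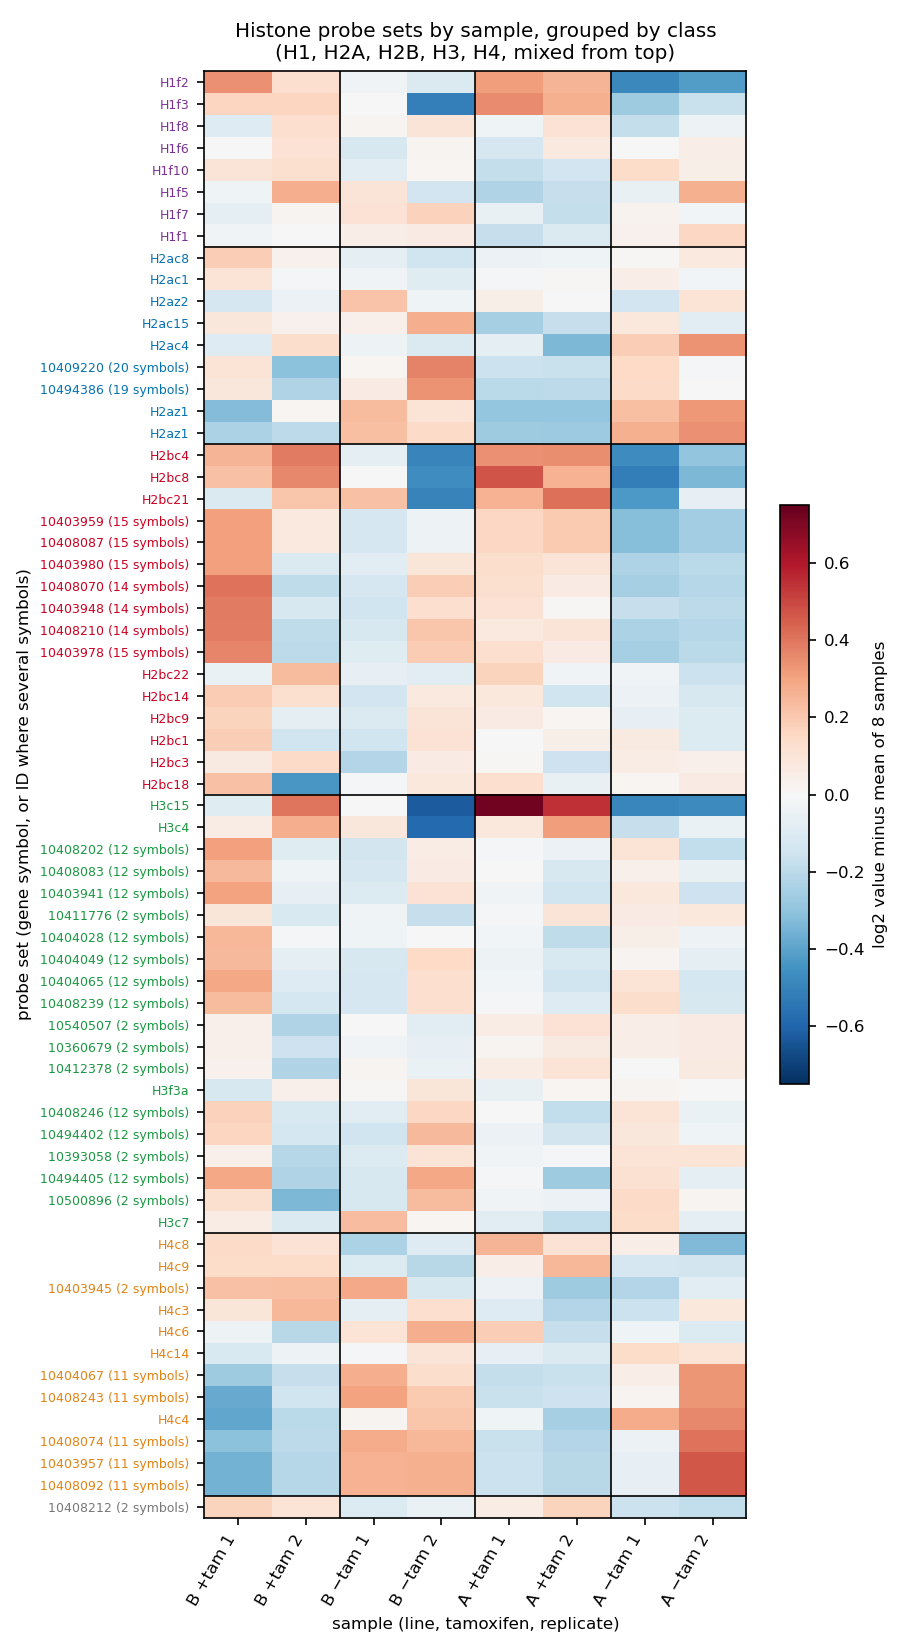
Each cell is 1 probe set in 1 sample, as its log2 value minus the probe set's mean over 8 samples (red above, blue below), with samples ordered by line and, within a line, with tamoxifen before without. H2bc4, H2bc8 and H1f2 are red in all 4 tamoxifen samples. H4c4 and the H2az1 probe set 10540999 (the lower H2az1 row) are blue in all 4, and most H3 cells are pale.

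The starts of 4 of these genes are shown first, because they carry the pattern: H2az1, the call; H4c4, the H4 gene with its own probe set and the smallest p; H2bc8, for H2B; and H1f2, for H1. Each window runs from 250 bases before the start to 50 after it, from RefSeq on GRCm38.p6, written 5′ to 3′ on the gene's own strand. Capitals mark matches on either strand to CCAAT (the CCAAT box), TATAAA (the TATA box), ATTTGCAT (the octamer, a classical H2B promoter element), TTTNNCGC (an E2F-type site) and TTTGAA (the CHR element of cell cycle genes). A base may belong to matches of more than 1 motif. H2az1 lies at chr3:137864237-137864536, H4c4 at chr13:23581318-23581617, H2bc8 at chr13:23571150-23571449 and H1f2 at chr13:23738557-23738856, each on the plus strand.
H2az1: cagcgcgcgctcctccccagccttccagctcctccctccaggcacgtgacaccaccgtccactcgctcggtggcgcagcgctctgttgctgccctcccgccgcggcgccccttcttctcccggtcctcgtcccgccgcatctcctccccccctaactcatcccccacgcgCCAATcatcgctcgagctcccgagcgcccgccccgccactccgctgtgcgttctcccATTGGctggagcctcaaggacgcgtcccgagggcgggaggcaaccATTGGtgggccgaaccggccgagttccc
H4c4: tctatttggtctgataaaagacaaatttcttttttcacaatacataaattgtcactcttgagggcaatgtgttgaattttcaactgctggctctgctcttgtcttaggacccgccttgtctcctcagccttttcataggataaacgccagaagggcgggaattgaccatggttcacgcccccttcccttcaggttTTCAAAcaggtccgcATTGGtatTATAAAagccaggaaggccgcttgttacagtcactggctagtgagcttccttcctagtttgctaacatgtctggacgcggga
H2bc8: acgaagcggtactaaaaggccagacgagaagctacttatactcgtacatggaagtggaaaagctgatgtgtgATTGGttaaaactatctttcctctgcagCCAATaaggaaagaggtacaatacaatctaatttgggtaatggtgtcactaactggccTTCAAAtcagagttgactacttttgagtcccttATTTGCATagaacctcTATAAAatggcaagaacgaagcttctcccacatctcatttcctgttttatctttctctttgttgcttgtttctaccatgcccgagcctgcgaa
H1f2: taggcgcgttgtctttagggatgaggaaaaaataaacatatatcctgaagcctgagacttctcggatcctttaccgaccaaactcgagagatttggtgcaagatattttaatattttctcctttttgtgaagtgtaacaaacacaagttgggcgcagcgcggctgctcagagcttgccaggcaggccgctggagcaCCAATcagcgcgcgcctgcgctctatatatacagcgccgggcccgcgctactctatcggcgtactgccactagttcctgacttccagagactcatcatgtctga

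The H2az1 window held 3 CCAAT boxes and none of the other 4 motifs. H4c4 held a CCAAT box, a TATA box and a CHR element. In H2bc8 there were 2 CCAAT boxes and 1 each of the TATA box, the octamer and the CHR element, and in H1f2 a single CCAAT box. Only the exact letters were searched, so a similar stretch, such as tatata in the H1f2 window, was not counted. Of the 33 genes with a probe set of their own, 29 were in the promoter table; H2bc21, H2bc4, H3c7 and H4c14 were not matched. Among 20 replication-dependent genes, the CCAAT box occurred in 17, the TATA box in 13, the CHR element in 10, the octamer in 6 and the E2F-type site in 5. In all 32851 promoters of the table the shares were 37.4% for the CCAAT box, 13.6% for the TATA box, 17.9% for the CHR element, 1.7% for the octamer and 5.2% for the E2F-type site. The octamer was in 4 of 6 replication-dependent H2B windows and 2 of 3 of H2A, and in 0 of 11 of H1, H3 and H4. Its H2B holders, H2bc8, H2bc14, H2bc3 and H2bc18, had log2 differences with tamoxifen of 0.66, 0.12, 0.03 and -0.07. The H2B windows without it, H2bc22 and H2bc9, had 0.16 and 0.09. H2bc4 and H2bc21 had no window, and a link between the motif and the difference was not tested. The H2bc8 and H2ac8 windows share 279 bases, so matches in that stretch, the octamer among them, were counted for both genes. A match describes the letters only.

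H2A.Z, the variant placed around promoters in exchange for ordinary H2A, is made by H2az1 and H2az2. The H2az1 probe set 10540999 read 11.59 and 11.63 in line B with tamoxifen, against 12.05 and 11.98 without. In line A it read 11.56 and 11.56 with tamoxifen, against 12.09 and 12.17 without. All 4 tamoxifen samples lay below all 4 others, with the lines close together in each treatment. H2az1 fell by 0.49 on the log2 scale, or 1.40-fold (SE 0.06, 95% interval -0.64 to -0.34, limma adjusted p = 0.0413). Leaving out any 1 of the 8 arrays ended the call, with adjusted p-values from 0.0799 to 0.222, and over 19 alternatives the adjusted p ran from 0.00712 to 0.222, with 10 of them past the threshold.

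The other H2az1 probe set, 10496379, read 11.45 and 11.79 in line B with tamoxifen, against 12.01 and 11.88 without, and in line A 11.49 and 11.49 with, against 12.00 and 12.11 without. Its groups did not overlap either, and its log2 difference was -0.44 (SE 0.10, limma adjusted p = 0.182). For H2az2, whose product differs from that of H2az1 by a few residues, the samples with tamoxifen gave 8.87, 8.96, 9.04 and 8.99, against 9.21, 8.96, 8.86 and 9.10 without, in the order line B then line A. These overlapped, and the difference was -0.07 (SE 0.09, 95% interval -0.28 to 0.14). A test of H2az1 against H2az2 was not made.

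Canonical H2A, which pairs with H2B in the nucleosome, was read mainly through 2 probe sets annotated with 19 and 20 symbols. Probe set 10494386 read 8.16 and 7.84 in line B with tamoxifen, against 8.13 and 8.41 without, and in line A 7.87 and 7.88 with, against 8.21 and 8.07 without. In line B the treatments overlapped, and in line A they separated. Its log2 difference was -0.27 (SE 0.09, limma adjusted p = 0.479), and that of 10409220 was -0.27 (SE 0.11, adjusted p = 0.613). Of the H2A genes with their own replication-dependent probe set, H2ac15, H2ac4 and H2ac8, all 3 were among the dimmest 30%, and their differences ran from -0.18 to 0.07. Outside the dimmest the class median was -0.27, a value that also counts both H2az1 probe sets, H2az2 and germline-type H2ac1.

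H2B showed the other direction. H2bc4 (10404053) read 11.63 and 11.76 in line B with tamoxifen, against 11.30 and 10.88 without, and in line A 11.71 and 11.72 with, against 10.90 and 11.08 without. Every tamoxifen sample lay above every other sample. The log2 difference was 0.67, a 1.59-fold higher level (SE 0.10, 95% interval 0.43 to 0.90, limma adjusted p = 0.0646). H2bc8 (10404036), at 8.71 and 8.85 in line B with tamoxifen and 8.49 and 8.03 without, and at 8.96 and 8.75 in line A with tamoxifen and 7.97 and 8.16 without, also had no overlap. Its difference was 0.66, or 1.58-fold (SE 0.12, limma adjusted p = 0.123). Without replicate 1 of line B without tamoxifen both H2B genes passed, with adjusted p-values of 0.0354 for H2bc4 and 0.047 for H2bc8, while H2az1 did not.

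A further 7 H2B probe sets carried 14 or 15 symbols each. Of these, 10403959 and 10408087 held the same values: 9.63 and 9.40 in line B with tamoxifen, against 9.20 and 9.29 without, and in line A 9.48 and 9.52 with, against 9.002 and 9.06 without. They did not overlap between treatments, and the log2 difference was 0.37 (SE 0.08, limma adjusted p = 0.172). The brightest of the shared probe sets, 10403980, read 10.08 and 9.67 in line B with tamoxifen, against 9.69 and 9.87 without, and in line A 9.91 and 9.87 with, against 9.54 and 9.57 without. There the treatments overlapped in line B and separated in line A, and the difference was 0.21 (SE 0.11, adjusted p = 0.692). Over the 7 the differences ran from 0.18 to 0.37, with medians of 0.10 (line B) and 0.32 (line A).

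The other replication-dependent H2B genes with their own probe set were less distinct. H2bc21 had a difference of 0.39 with a wide error (SE 0.18), and its line B samples without tamoxifen read 8.96 and 8.23. H2bc22, H2bc14, H2bc9 and H2bc3 had differences of 0.16, 0.12, 0.09 and 0.03, and H2bc18, at -0.07, was the only H2B probe set below 0. The adjusted p-values of these 6 were 0.665 or more.

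Linker histone H1, which binds where DNA enters and leaves the nucleosome, was read by 8 probe sets with 1 symbol each. H1f2 (10404059) read 10.78 and 10.56 in line B with tamoxifen, against 10.41 and 10.32 without, and in line A 10.75 and 10.69 with, against 9.95 and 10.02 without. The tamoxifen samples were the 4 highest, and line A without tamoxifen was the lowest group. The log2 difference was 0.52, or 1.43-fold (SE 0.10, limma adjusted p = 0.149). H1f3 read 6.78 and 6.78 in line B with tamoxifen, against 6.62 and 6.11 without, and in line A 6.98 and 6.89 with, against 6.35 and 6.45 without, a difference of 0.47 (SE 0.11, adjusted p = 0.227).

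H1f1, a replication-dependent gene of the same cluster, read 7.47 and 7.49 in line B with tamoxifen, against 7.54 and 7.55 without, and in line A 7.32 and 7.38 with, against 7.52 and 7.65 without. Its samples separated in the direction opposite to H1f2, by a small amount: the difference was -0.15 (SE 0.07, limma adjusted p = 0.619). H1f5, the other replication-dependent H1 gene with a probe set, had -0.08 (SE 0.13), and H1f10, a replication-independent variant, -0.06 (SE 0.09, 95% interval -0.27 to 0.16). H1f0 was not analysed here. The mixed probe set 10408212, annotated to H2bc6 and H1f4, lay higher in all 4 tamoxifen samples, by 0.25 (SE 0.06, adjusted p = 0.245).

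**Figure D2:**
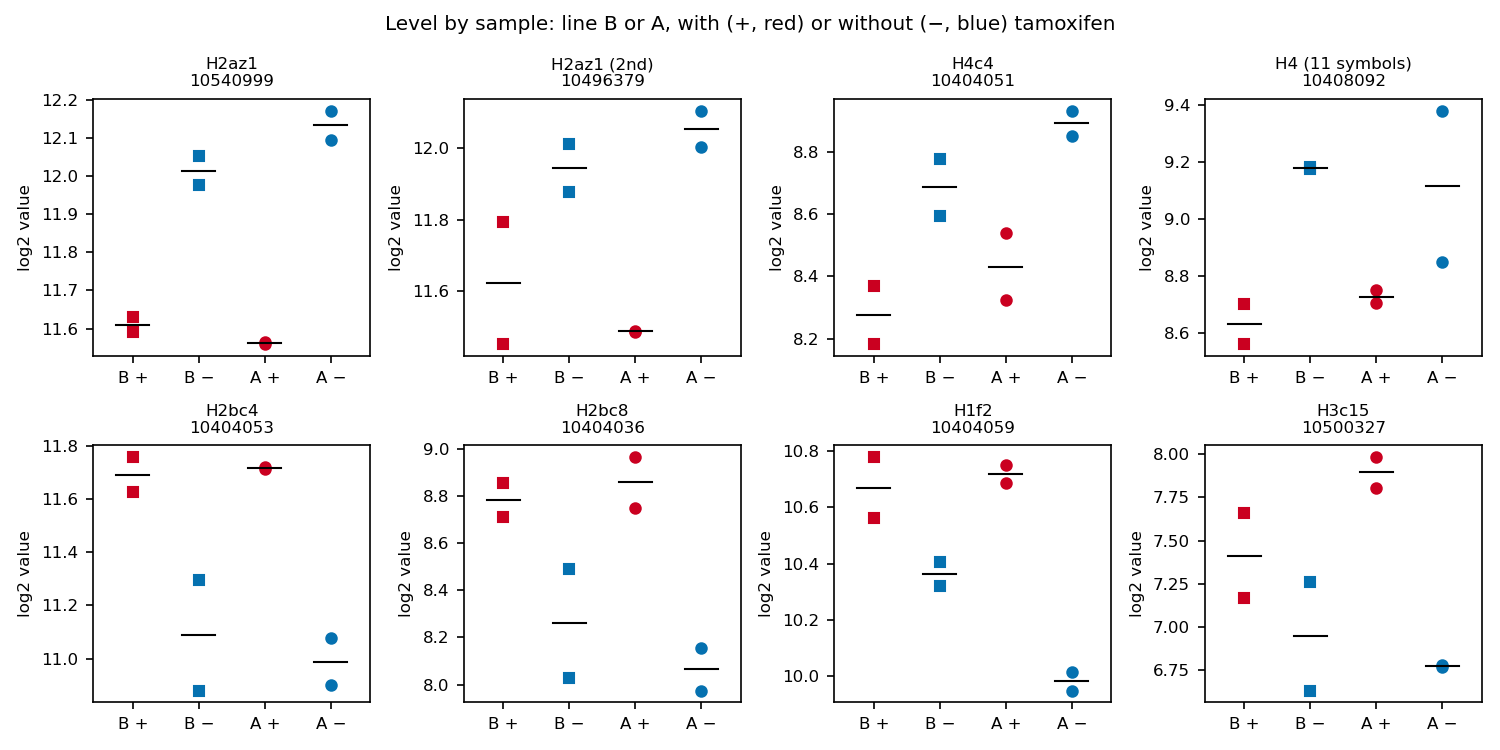
Points are log2 values of single samples, 2 a group (line B squares, line A circles; red with tamoxifen, blue without), and bars are group means; each panel has its own vertical axis, which does not start at 0. In the upper row (H2az1, H4c4 and 1 H4 probe set with 11 symbols) the red points lie below the blue ones, and in the lower row H2bc4, H2bc8 and H1f2 have them above, while H3c15 overlaps in line B.

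H3, the carrier of most studied histone marks, split by probe set. The 10 probe sets annotated with 12 symbols each, of replication-dependent H3 genes, had log2 differences between -0.11 and 0.08 with a median of 0.01, and their levels lay between 7.38 and 8.54 in every sample. H3c15 (10500327) read 7.17 and 7.66 in line B with tamoxifen, against 7.26 and 6.63 without, and in line A 7.98 and 7.81 with, against 6.77 and 6.78 without. Line B overlapped and line A separated widely. The difference over both lines was 0.79, or 1.73-fold (SE 0.19, 95% interval 0.35 to 1.24, limma adjusted p = 0.245), the largest of the 66.

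H3c4 read 8.06 and 8.27 in line B with tamoxifen, against 8.08 and 7.41 without, and in line A 8.08 and 8.31 with, against 7.82 and 7.95 without. The line B samples overlapped, and the difference was 0.36 (SE 0.15, limma adjusted p = 0.562). H3c7, among the dimmest at about 4, had -0.16 (SE 0.08, adjusted p = 0.722). The H3 median was 0.15 over the 4 probe sets with 1 symbol and -0.01 over all 20.

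H3.3, the variant laid down outside replication, was read by 7 probe sets. The 2 annotated to H3f3b and a second symbol had differences of -0.10 (10393058, SE 0.08) and -0.14 (10500896, SE 0.12). Probe set 10393058 read 11.41 and 11.16 in line B with tamoxifen, against 11.27 and 11.48 without, and in line A 11.35 and 11.37 with, against 11.47 and 11.48 without. The 4 annotated to H3f3a and a second symbol lay within -0.02 to 0.03, among them 10412378 at -0.02 (SE 0.08). The 1 with H3f3a alone (10407809) was at -0.06 (SE 0.06, 95% interval -0.21 to 0.09). None of the 7 separated by treatment over both lines, and the lowest adjusted p among them was 0.8357, for 10393058.

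H4, the partner of H3, was read by 12 probe sets, of which 5 were annotated with 11 symbols each. Probe set 10404067 read 8.69 and 8.79 in line B with tamoxifen, against 9.23 and 9.09 without, and in line A 8.78 and 8.79 with, against 9.01 and 9.29 without, a log2 difference of -0.40 (SE 0.08, limma adjusted p = 0.152). Probe sets 10403957 and 10408092, with the same values, read 8.56 and 8.70 in line B with tamoxifen, against 9.18 and 9.18 without, and in line A 8.75 and 8.70 with, against 8.85 and 9.38 without. All 5 lay lower in every tamoxifen sample. Their differences ran from -0.47 to -0.40, with a median of -0.44, and their adjusted p-values from 0.152 to 0.246.

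Among H4 genes with their own probe set, H4c4 (10404051) read 8.18 and 8.37 in line B with tamoxifen, against 8.59 and 8.78 without, and in line A 8.54 and 8.32 with, against 8.85 and 8.93 without. Its groups did not overlap, and the difference was -0.44, or 1.35-fold lower (SE 0.08, 95% interval -0.63 to -0.24, limma adjusted p = 0.129). H4c14 also lay lower in all 4 tamoxifen samples, by -0.16 (SE 0.06). H4c9 and H4c8 lay higher in all 4, by 0.29 (SE 0.07, adjusted p = 0.219) and 0.31 (SE 0.09, adjusted p = 0.406), H4c8 with levels among the dimmest. H4c6, H4c3 and the probe set 10403945 (2 symbols), also among the dimmest, had -0.12, 0.02 and 0.07. The 6 H4 probe sets with 1 symbol thus had a median of -0.05, against -0.44 for the 5 shared ones.

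Of the germline-type genes, which serve sperm or egg chromatin, H1f6, H1f8, H2ac1 and H2bc1 had differences of 0.03, 0.05, 0.04 and 0.04. H1f7 read 7.28 and 7.37 in line B with tamoxifen, against 7.46 and 7.52 without, and in line A 7.29 and 7.17 with, against 7.37 and 7.33 without. It separated lower within both lines but not over all 8 samples, and its difference was -0.14 (SE 0.06, limma adjusted p = 0.6205), with an unadjusted p of 0.04956.

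Whether the lines answered alike was asked next. In line B, 0 of 66 members passed limma's test for tamoxifen and 0 of all probe sets did (0%), while 15 members had an unadjusted p under 0.05, beside 4.81% of all. The smallest p-values belonged to H2az1 (-0.40, SE 0.09, limma adjusted p = 0.624) and H2bc4 (0.61, SE 0.15, adjusted p = 0.772). Samples did not overlap for 28 of 66 (42.4%), beside 25.2% of all probe sets.

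In line A, 0 of 66 passed and 1 of all probe sets did, which is 0.00281%. At an unadjusted p under 0.05 there were 18 members, beside 6.54% of all probe sets. H1f2 had the smallest p, with a log2 difference of 0.73 (SE 0.11, limma adjusted p = 0.103), and H2az1 the next, with -0.57 (SE 0.09, adjusted p = 0.1175). The 2 samples with tamoxifen did not overlap the 2 without for 42 of 66 (63.6%), beside 45.3% of all probe sets. The lines share no samples. Separation in the same direction in both was seen in 20 of 66 members, beside 8.16% of all probe sets: 9 higher in both (4.14% of all) and 11 lower in both (4.02% of all).

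Class medians in the lines pointed the same way for H2B (0.16 in line B, 0.31 in line A), H4 (-0.36 in line B, -0.27 in line A) and H2A (-0.17 in line B, -0.24 in line A). For H1 they were 0.12 in line B and -0.08 in line A, and for H3 0.02 in line B and -0.05 in line A. The opposite H1 signs came with germline-type genes and H1f10 counted. The 4 replication-dependent H1 genes alone had medians of 0.22 in line B and 0.15 in line A. The H2A class also counts the H2az1 and H2az2 probe sets and H2ac1. Its 5 replication-dependent probe sets alone had medians of -0.10 in line B, where 2 lay above 0, and -0.24 in line A, where all 5 lay below 0. Several of these medians moved with single arrays. In line B, leaving out replicate 2 with tamoxifen gave 0.31 for H2B, 0.20 for H3, 0.02 for H1 and -0.09 for H2A. Leaving out replicate 1 with tamoxifen gave 0.04 for H2B and -0.10 for H3, and leaving out replicate 1 without tamoxifen gave 0.03 for H2B and 0.06 for H1. The H4 median of line B lay between -0.38 and -0.27 when each array was left out. In line A, leaving out replicate 2 without tamoxifen gave -0.12 for H4, -0.32 for H2A and -0.12 for H3, and leaving out replicate 1 without tamoxifen gave -0.16 for H2A and -0.01 for H3. The H2B median of line A stayed between 0.29 and 0.33. With 1 symbol only, the H4 median was 0.02 in line B and -0.02 in line A.

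The difference between the effects was itself tested. None of 66 members passed, nor any probe set of the table (0%), and 3 members had an unadjusted p under 0.05, beside 3.48% of all. These were H1f10, with an effect higher by 0.39 in line B than in line A (SE 0.13), H2ac4, by 0.55 (SE 0.19), and H1f2, with -0.43 (SE 0.15), all with a limma adjusted p of 1. H3c15 had an effect of 0.47 in line B and 1.12 in line A, and the difference of -0.65 had an interval from -1.45 to 0.14. For H2az1 (10540999) the difference was 0.17 (95% interval -0.12 to 0.46).

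**Figure D3:**
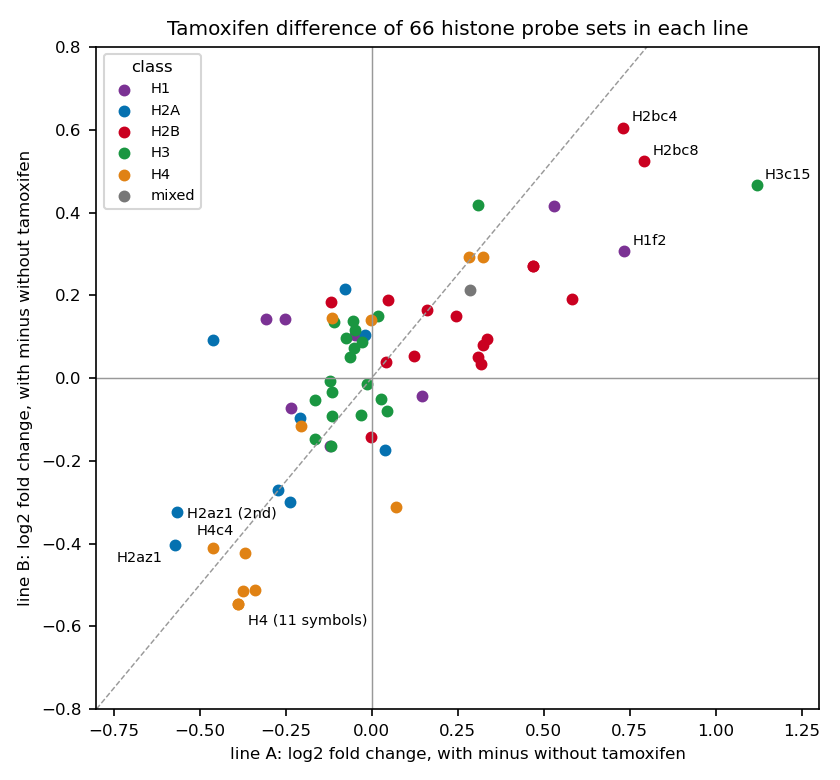
Each point is 1 of 66 probe sets, with its log2 difference with minus without tamoxifen in line A on the horizontal axis and in line B on the vertical one; colours are classes and the dashed line marks equality. H2bc4, H2bc8, H1f2 and H3c15 lie at the upper right, H2az1 and the H4 probe sets at the lower left, and most H3 points near 0.

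Between the lines themselves no histone probe set passed the test. Over both treatments, 0 of 66 members passed for line B against line A, while 0.337% of all probe sets did, and 2 members had an unadjusted p under 0.05, beside 7.01% of all. The H4 probe set 10403945 read 6.11, 6.12, 6.18 and 5.77 in line B, with tamoxifen first, against 5.85, 5.63, 5.67 and 5.81 in line A, a difference of 0.31 (SE 0.10, limma adjusted p = 0.511) among the dimmest levels. H2ac15, also dim, had 0.21 (SE 0.08, adjusted p = 0.57). The 4 samples of each line did not overlap in 1 member, beside 4.13% of all probe sets: the probe set 10540507, annotated to H3f3a and a second symbol, at 10.38, 10.11, 10.34 and 10.25 in line B and 10.39, 10.45, 10.39 and 10.40 in line A.

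Without tamoxifen alone, 0 of 66 passed (0.00844% of all did) and 2 had an unadjusted p under 0.05, beside 5.21% of all: H1f2 at 0.38 higher in line B (SE 0.11, limma adjusted p = 0.609) and H2ac4 at -0.33 (SE 0.13, adjusted p = 0.923). With tamoxifen, 0 passed (0.163% of all did) and 3 had an unadjusted p under 0.05, beside 5.6%: H1f10 at 0.27, H4c3 at 0.33 and 10403945 at 0.38. For H1f2 the lines thus lay 0.38 apart without tamoxifen and -0.05 (SE 0.11) with it.

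Members with 1 symbol differed in sign between neighbours in their order along a chromosome. Probe sets with several symbols were left out of this order. Of the 34 probe sets with 1 symbol, all matched to RefSeq genes, 23 lay on chromosome 13, where the main histone cluster is, 6 on chromosome 3 and 5 elsewhere. In the run H1f3, H2ac8, H2bc8, H3c4, H4c4 and H2bc4 of members along chromosome 13, log2 differences were 0.47, 0.07, 0.66, 0.36, -0.44 and 0.67. H4c4 thus had the sign opposite to that of the members with 1 symbol on either side. On chromosome 3, H2bc21, H3c15, H4c14 and H2bc18 had 0.39, 0.79, -0.16 and -0.07. H2bc8 and H2ac8 are read in opposite directions from one stretch, and their promoter windows share 279 bases; the H2bc8 probe set differed by 0.66 and the dim H2ac8 one by 0.07 (SE 0.08). The other such pair among the matched members, H2ac1 and H2bc1, shared 220 bases and differed by 0.04 and 0.04.

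**Figure D4:**
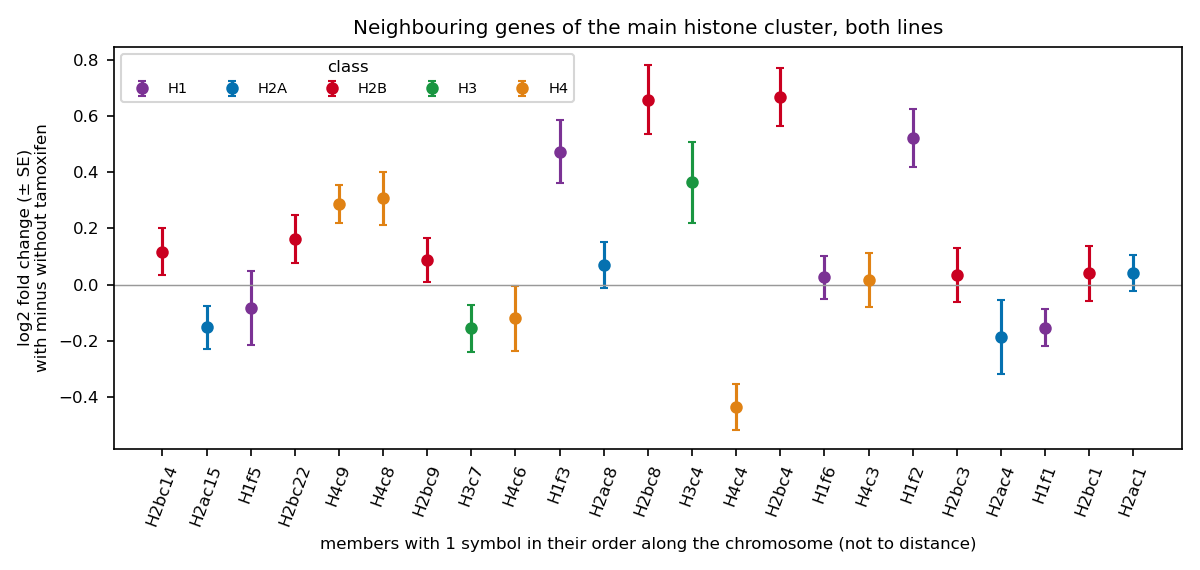
Points are log2 differences with minus without tamoxifen over both lines, with SE bars, for 23 members with 1 symbol in their order along chromosome 13 (equal steps, not distance). H2bc8 at 0.66, H3c4 at 0.36, H4c4 at -0.44 and H2bc4 at 0.67 stand side by side in this order, which leaves out probe sets with several symbols.

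Genes that make, process and place histones were read from 6 lists, in none of which a probe set passed in any of the 7 comparisons. Of 8 measured genes for histone gene transcription (9 listed), the median difference with tamoxifen was -0.10. Npat, the coactivator of the clusters, had 0.03 (SE 0.15), and Ccne2, Cdk2 and Gon4l, the smallest p-values of the list, had -0.30, -0.14 and -0.12. For stem-loop processing, translation and decay, 19 of 22 genes were measured by 22 probe sets with a median of -0.10, and 0 had an unadjusted p under 0.05. Slbp, the stem-loop binding protein, had -0.16 (SE 0.10) and -0.12 (SE 0.15) in its 2 probe sets, and Ctif, Cstf2 and Lsm1 had -0.15, -0.14 and 0.14.

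Supply to new DNA was read by 17 probe sets of 16 genes (18 listed), with a median of -0.14, and 5 had an unadjusted p under 0.05, each lower, beside 3.35% of all probe sets lower at that p. Chaf1b, a subunit of the assembly factor CAF-1, read 7.67 and 7.23 in line B with tamoxifen, against 7.78 and 7.88 without, and in line A 7.24 and 7.44 with, against 7.85 and 7.64 without. Both lines separated, and 1 tamoxifen sample of line B lay above the lowest line A sample without tamoxifen; the difference over both lines was -0.39 (SE 0.11, limma adjusted p = 0.333). Chaf1a, of the same complex, had -0.22 (SE 0.06), Mcm2, a helicase subunit that also carries histones, -0.33 (SE 0.12), and Asf1b, an H3 and H4 chaperone, -0.18 (SE 0.07). Replication-independent supply had a median of -0.06 over 14 genes of 15 listed, with Srcap, Cabin1 and Ruvbl2 at -0.20, -0.20 and -0.26.

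Histone genes that the rule does not reach were measured for 6 of 13 symbols listed, of which several are old names. Cenpa, the centromeric H3, read 8.69 and 8.46 in line B with tamoxifen, against 8.91 and 8.92 without, and in line A 8.45 and 8.40 with, against 8.96 and 8.96 without. It did not overlap, and its difference was -0.44 (SE 0.08, limma adjusted p = 0.0985). H2aj, a replication-independent H2A gene, had 0.25 (SE 0.11, adjusted p = 0.593), and H2ax, the H2A form phosphorylated at DNA breaks, -0.15 (SE 0.08).

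S phase genes lay lower beside these histone values. Of 30 probe sets for 27 genes (28 listed), 0 passed, 21 had an unadjusted p under 0.05 with all 21 lower, and 17 lay lower in all 4 tamoxifen samples; 3.35% and 2.32% of all probe sets did so. Over both lines the median difference was -0.28, with -0.23 for line B and -0.36 for line A. Pclaf, a partner of the replication clamp, had -0.63 and -0.67 in its 2 probe sets (SE 0.09 and 0.10, limma adjusted p = 0.0607 and 0.066) and Pole, the leading-strand polymerase, -0.49 (SE 0.08, adjusted p = 0.068). H2az1 and the shared H4 probe sets thus lay on the side of these genes, and H2bc4, H2bc8, H1f2 and H3c15 on the other. The part of S phase in any histone difference was not tested.

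**Figure D5:**
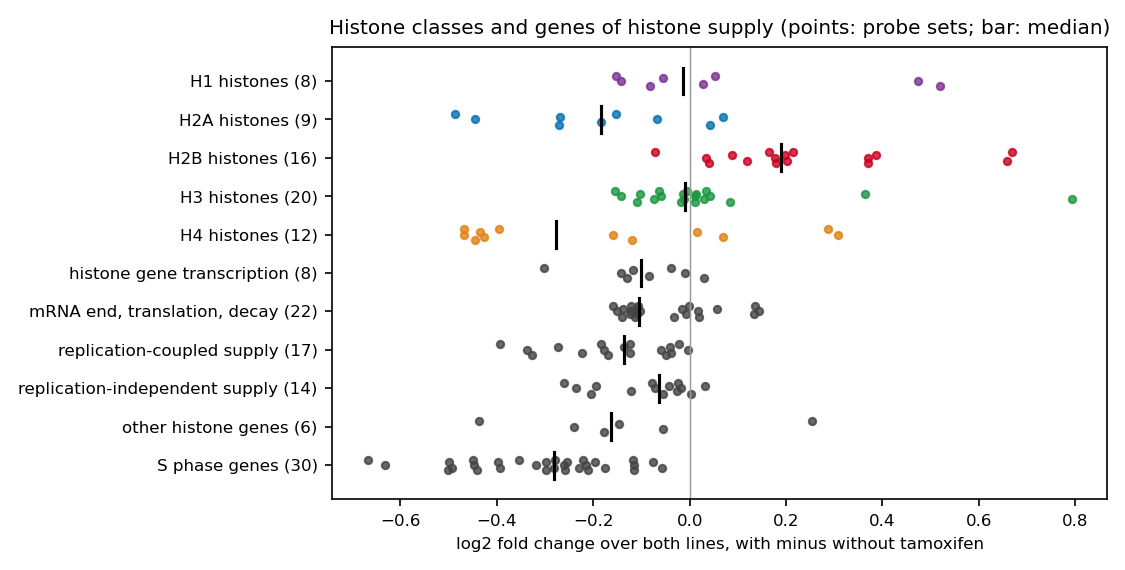
Each point is 1 probe set's log2 difference with minus without tamoxifen over both lines, by histone class (colours) and list (grey), with the number of probe sets in brackets and a black bar at the median. The medians run from 0.19 for H2B to -0.28 for H4 and for the S phase genes.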

How the data were processed

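The deposited table holds 1 log2 value per probe set and sample; per the labels' design text, the authors made it by RMA in the Expression Console software of Affymetrix (version not given in the sources here). This method corrects background, equalises the distributions of the arrays and compresses differences between dim probe sets. The deposited values lay between 2.61 and 14.12 and were not normalized again. GEO's platform annotation gave 1 symbol for 21789 probe sets and several for 1621; 12146 are unnamed here. A probe set with several symbols was given by its ID and class, since near-identical histone genes share probes; its class is that of most of its histone symbols.

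Titles set the groups; replicate numbers follow sample order and pair nothing. limma 3.58.1 (lmFit and eBayes, under R 4.3.3) was fitted to all 35556 probe sets, with Benjamini-Hochberg adjustment over all of them and a threshold of 0.05. For tamoxifen over both lines, 500 changes of size 1 (log2) and 500 of size 0.5 were spread over 5 simulated tables of 35556 probe sets. The limma fit found 82.4% of those of size 1 and 43.6% of those of size 0.5, with 3 to 6 false calls in each table. The simulated noise was drawn independently for each probe set and sample, with no difference between the lines. Shared probes, array-wide shifts and other numbers of changed probe sets were not simulated, so these figures may not hold for the real table. The effects of tamoxifen over both lines and of the line came from a model with both terms (5 residual degrees of freedom), the other comparisons from the 4 group means (4 degrees). The number of arrays limits the precision.

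The members and lists were chosen with earlier results of these data known. Members named were those that passed, the 3 smallest p-values and the 2 brightest per class, and the variants; of each list, the 3 smallest p-values with Slbp, Npat, Asf1b and Chaf1b. Other members named were chosen after their values were seen. Alternatives were other scalings, filters, weights, sets of probe sets, treatments of the line and leaving out each sample. Promoter windows came from RefSeq on GRCm38.p6.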

Additional observations from a re-analysis of the deposited data

How the results depend on the processing

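The tamoxifen difference over both lines kept its sign under every alternative tried for the 24 members with an unadjusted p under 0.05. Of the other 42, 21 changed sign under at least 1 alternative, each with a size of 0.0838 or less (H2az2, H1f5, H1f10 and H2bc18 among them), and so did the H1 and H3 medians, at -0.05 to 0.04 and -0.06 to 0.05 when each sample was left out. Over both lines 1 histone probe set passed. With array weights 12 passed, with only symbol-bearing probe sets 6, with 1 probe set per gene 5, with the dimmest 30% left out 2, and with the mean of the effects in each line 0. Leaving out each sample gave 0 to 2. The median shift, quantile normalization, trended and robust eBayes, no line term, the line as a random block, and identical profiles counted once (chosen after seeing the data) kept the count at 1. In line A array weights gave 4, 1 probe set per gene 2 and only symbol-bearing probe sets 2, against 0. Class medians also moved: H2A to -0.27 and H4 to -0.43 outside the dimmest 30%, H3 to 0.15 and H4 to -0.0521 with 1 symbol only, and H4 to -0.16 with identical profiles counted once. Leaving out each sample gave H2B medians from 0.11 to 0.32. Fewer probe sets entered the adjustment in the settings with a symbol and without the dimmest. The cause of these moves was not tested in any setting. Probe sets called in the whole table over both lines numbered 74, and 49 with the median shift, 114 without the dimmest, 451 with array weights, 263 with 1 probe set per gene, 260 with a symbol, 36 without a line term, 29 with the random block, 29 with the mean of the effects, and 2 to 47 without a sample. In line A they numbered 1, and 0, 18, 271, 100 and 180 with the median shift, without the dimmest, with array weights, with 1 probe set per gene and with a symbol. In line B the last of these gave 3 and 1 per gene 4, against 0. Between the lines over both treatments 120 passed, 293 with 1 per gene, 287 with a symbol and 16 to 115 without a sample; the same settings gave 106, 191 and 0 to 34 against 58 with tamoxifen, where the median shift gave 37. Without tamoxifen 65 and 56 passed with 1 per gene and with a symbol, 11 without the dimmest and 7 after quantile normalization, against 3. No paired analysis was possible because the labels number no replicates across groups. Dim probe sets near background limit what can be seen for 9 members.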
